A study of Mus musculus with 19 samples.

Results

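The 10 genes described here are splicing regulators and genes that make different transcripts in epithelial and mesenchymal cells: Esrp1, Esrp2, Rbfox2, Cd44, Fgfr1, Fgfr2, Ctnnd1, Enah, Slk and Arhgef11. They were taken from a fixed list of names, and all 10 were found among the 51707 genes of the tables. They hold 143 of the 137063 transcripts that matched the annotation. The abundance of a transcript is given in TPM (the usual abundance unit of RNA-seq, corrected for transcript length and scaled to the same total in every library), or as its share of the summed TPM of its gene.

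The 19 libraries come from cells sorted by flow cytometry out of pancreatic ductal adenocarcinomas of C57BL/6J mice, which grew from T-LOH KPC tumour organoids placed orthotopically. PDPN+ cells, called cancer-associated fibroblasts in the labels, gave 4 libraries from neratinib mice and 4 from vehicle mice. EpCAM+ cells, called epithelial cells, gave 5 libraries from neratinib mice and 6 from vehicle mice. Treatment lasted 2 weeks, and neratinib blocks the ERBB family of receptor tyrosine kinases irreversibly. All 4 groups share the transplanted organoid tumours. Libraries are named by the code that opens their label. Per-library values run in the order 6A, 7A, 8A, 9A for neratinib and 1A, 2A, 3A, 4A for vehicle PDPN+ cells, and 7B, 8B, 10B, 12B, 13B for neratinib EpCAM+ cells. The labels also hold a number that looks like the mouse's own, though no label says so. If it is, 8 mice gave both populations and 3 gave EpCAM+ cells alone, and p-values rest on the spread between these libraries.

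ESRP1 and ESRP2 are RNA-binding proteins of epithelial cells that switch a set of exons to their epithelial form, and RBFOX2 is a broadly expressed splicing regulator that favours several of the mesenchymal forms. Among their targets, FGFR2 and FGFR1 choose between exon IIIb and exon IIIc, which encode different ligand-binding domains, and the IIIb form of FGFR2 is the receptor for FGF7 and FGF10. CD44, the hyaluronan receptor, gains a block of variable exons in epithelia. The p120 catenin gene Ctnnd1 starts translation at its first start codon in mesenchymal cells and at a later one in epithelia. The actin regulator Mena (Enah) includes exon 11a, and the kinase gene Slk skips a cassette exon, in epithelial cells.

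The exons that separate the forms are shown because the shares below depend on which annotated transcripts hold them. Capitals mark the exon itself, and the 10 lower-case bases on each side belong to the neighbouring exons of the transcript. Each was read 5′ to 3′ along the gene's own strand from the GENCODE M21 transcripts. Enah exon 11a is a coding exon of 63 bases on chromosome 1, minus strand, and is exon 13 of the 16 exons of Enah-202, the single annotated transcript that holds it. The last variable exon of Cd44, v10, lies on chromosome 2, minus strand, and has 207 bases. It is present in all 7 annotated Cd44 transcripts with a variable exon. At the standard join of Cd44-203 the capitals mark the constant exon before the variable block, and the lower-case bases belong to the constant exon after it.
Enah exon 11a: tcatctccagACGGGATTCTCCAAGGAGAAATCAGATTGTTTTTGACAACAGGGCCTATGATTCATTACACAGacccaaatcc
Cd44 variable exon v10: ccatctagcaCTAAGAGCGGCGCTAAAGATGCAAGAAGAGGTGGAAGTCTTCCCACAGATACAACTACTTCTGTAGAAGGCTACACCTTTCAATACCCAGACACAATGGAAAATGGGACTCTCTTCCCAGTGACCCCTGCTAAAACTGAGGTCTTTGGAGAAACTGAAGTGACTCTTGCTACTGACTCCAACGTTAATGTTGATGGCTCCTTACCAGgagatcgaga
Cd44 standard join: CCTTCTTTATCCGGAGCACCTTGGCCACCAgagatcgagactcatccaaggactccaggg

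The alternative exon IIIb of Fgfr2 lies on chromosome 7, minus strand, and has 148 bases. The Slk cassette exon lies on chromosome 19, plus strand, has 93 bases, and is exon 13 of the 19 exons of Slk-202.
Fgfr2 exon IIIb: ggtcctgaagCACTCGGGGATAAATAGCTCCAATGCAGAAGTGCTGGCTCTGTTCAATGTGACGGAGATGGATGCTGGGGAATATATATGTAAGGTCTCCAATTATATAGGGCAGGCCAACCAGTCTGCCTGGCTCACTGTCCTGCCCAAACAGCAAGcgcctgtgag
Slk cassette exon: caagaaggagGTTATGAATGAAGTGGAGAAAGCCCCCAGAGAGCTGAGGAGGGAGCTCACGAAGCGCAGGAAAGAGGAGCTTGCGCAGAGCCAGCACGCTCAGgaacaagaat

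The libraries held 33.3 to 76.9 M reads. The sorted populations carried the markers of their labels. All 7 epithelial markers were lower and all 6 fibroblast markers higher in PDPN+ than in EpCAM+ cells. The summed TPM of the epithelial markers was 286 to 1202.5 in PDPN+ libraries and 17600 to 23885 in EpCAM+ libraries. The keratins Krt8 and Krt19 were above 0 in every PDPN+ library, and Epcam was at 0 in 3 of the 8. Of 4 mesothelial markers Wt1, Upk3b and Lrrn4 were also higher in PDPN+ cells, and Msln, at 321 TPM on average in PDPN+ and 732 TPM in EpCAM+ cells, did not pass. In the vehicle PDPN+ libraries 1A and 4A, 12057 and 11876 genes reached 10 reads, against 13642 to 18552 genes in the other PDPN+ libraries. Whether fewer cells of a type or less RNA per cell underlies a lower level cannot be told apart in such bulk samples.

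Of the regulators, both Esrp genes were lower in PDPN+ than in EpCAM+ cells, and Esrp1 was close to absent. Esrp1 had 0 reads in 7 PDPN+ libraries and 2 reads in the neratinib library 9A, against 31.7 to 57.3 TPM in the 11 EpCAM+ libraries. Over all libraries 2 reads in PDPN+ cells stood against 59707 in EpCAM+ cells, and the reads, scaled to each population's total, were 16175 times as many in EpCAM+ as in PDPN+ cells (exact 95% interval 4477 to 133562, counting error only). The difference passed edgeR's quasi-likelihood test with Benjamini-Hochberg adjustment over all genes (adjusted p = 1.5e-11). Esrp1 was thus detected in 1 of the 8 PDPN+ libraries, at 0.0256 TPM.

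Esrp2 had 0.303, 0.0905, 2.42 and 0.215 TPM in neratinib PDPN+ libraries and 3.88, 0.372, 1.64 and 0.212 TPM in vehicle PDPN+ libraries. It had 8.15, 56.1, 43.0, 45.2 and 25.6 TPM in neratinib EpCAM+ libraries, and a lowest, median and highest level of 9.30, 35.1 and 45.0 TPM in the 6 vehicle EpCAM+ libraries. The populations did not overlap, and the log2 difference of scaled read counts, PDPN+ minus EpCAM+, was -4.10 ± 0.73 (SE, adjusted p = 1.4e-04). The 3 lowest EpCAM+ libraries, 1B and 2B (vehicle) and 7B (neratinib), had 10.7, 9.30 and 8.15 TPM, and all others at least 25.6 TPM.

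Rbfox2 was expressed in both populations and did not pass between them. It averaged 22 ± 7.17 TPM in PDPN+ cells (SD, n = 8) and 14.7 ± 5.22 TPM in EpCAM+ cells (SD, n = 11), with a log2 difference of 0.47 ± 0.31 (SE, adjusted p = 0.22). The vehicle PDPN+ libraries, at 24.2 to 33.6 TPM, lay above all 11 EpCAM+ libraries, at 4.36 to 21.3 TPM, and the neratinib PDPN+ libraries, at 11.3 to 19.4 TPM, lay within their range. In transcripts the populations differed in 1 short form, Rbfox2-211, an annotated 2-exon coding fragment of 482 bases. Its share of Rbfox2 TPM was 82.4, 19.5, 51.2 and 17.7% in neratinib PDPN+ libraries and 0, 0, 15.1 and 0% in vehicle PDPN+ libraries. It was at 0 in all 11 EpCAM+ libraries, and its usage against the gene's other transcripts was higher in PDPN+ cells (edgeR diffSpliceDGE, adjusted p = 3.0e-04), a call lost in 1 of 24 alternatives.

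**Figure D1:**
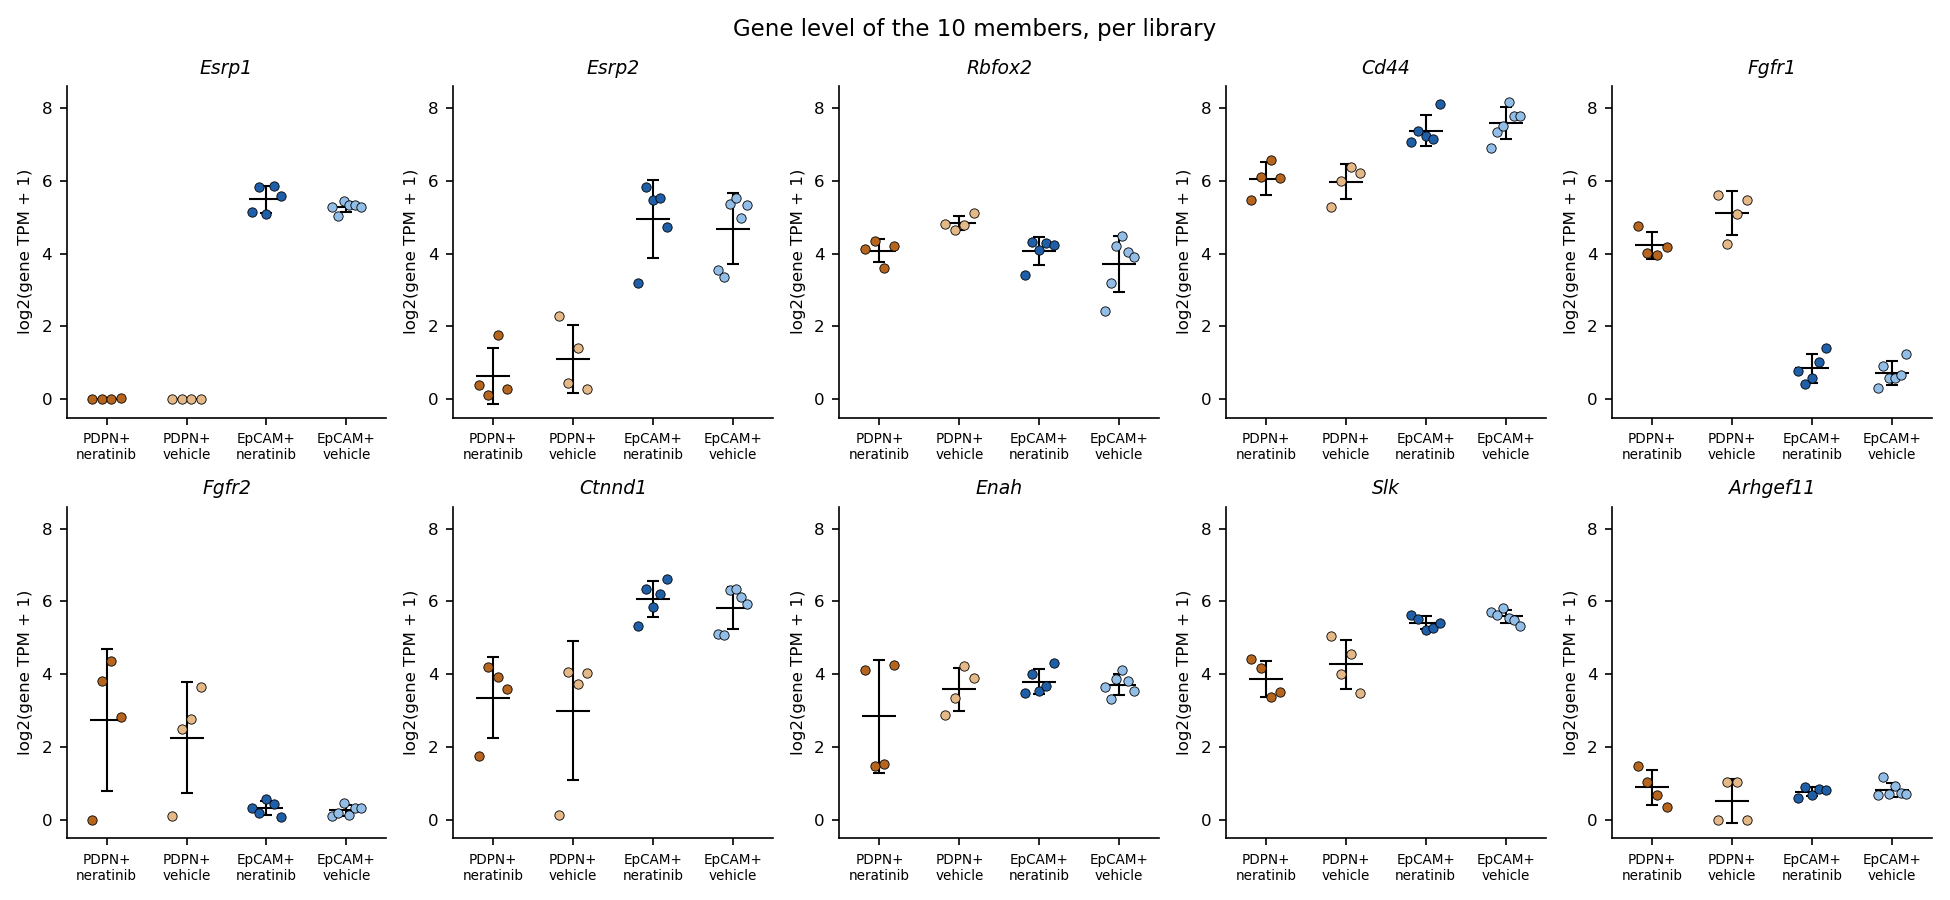
Gene levels of the 10 members as log2(TPM + 1), 1 panel a gene, with 1 point a library and the mean ± SD of each group. Esrp1 and Esrp2 lie lower, and Fgfr1 higher, in all PDPN+ libraries than in any EpCAM+ library, and Rbfox2, Enah and Arhgef11 overlap between the populations.

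Over the 10 members, 2 were higher, 5 lower and 3 not past the threshold in PDPN+ against EpCAM+ cells. Of all 19626 genes tested, 49.3% passed, 24.3% as higher and 25% as lower (4761 and 4912 genes, against 2584 and 6971 with limma on log2(TPM + 1)). The members' 7 of 10 calls stand beside a comparison in which about every other gene was called. The median log2 difference was -0.35 over the members and -0.13 over all genes tested. The 7 member calls held in all 26 alternatives tried.

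Both FGF receptor genes were the members higher in PDPN+ cells. Fgfr1 had 26.1, 15.2, 14.5 and 17.1 TPM in neratinib PDPN+ libraries and 47.5, 18.3, 32.9 and 43.4 TPM in vehicle PDPN+ libraries, against 0.241 to 1.68 TPM in the 11 EpCAM+ libraries. The log2 difference was 5.68 ± 0.41 (SE, adjusted p = 2.9e-09), with every PDPN+ library above every EpCAM+ library. Fgfr2 had 0, 13.2, 19.5 and 6.06 TPM in neratinib PDPN+ libraries and 0.0776, 4.64, 5.86 and 11.6 TPM in vehicle PDPN+ libraries, against 0.0632 to 0.487 TPM in EpCAM+ libraries. The log2 difference was 5.78 ± 0.96 (SE, adjusted p = 6.4e-05), although the PDPN+ libraries 6A (neratinib) and 1A (vehicle) lay within or under the EpCAM+ range. Fgfr2 was thus below 0.5 TPM in every EpCAM+ library.

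Ctnnd1, Cd44 and Slk were lower in PDPN+ cells. Ctnnd1 averaged 11.1 ± 6.40 TPM in PDPN+ cells and 63.6 ± 21.1 TPM in EpCAM+ cells (SD, n = 8 and 11), with a log2 difference of -2.08 ± 0.54 (SE, adjusted p = 0.0035). Cd44 averaged 66.1 ± 18.7 TPM in PDPN+ and 185 ± 56.4 TPM in EpCAM+ cells, with a log2 difference of -0.91 ± 0.19 (SE, adjusted p = 6.4e-04). Slk averaged 17.2 ± 7.79 TPM in PDPN+ and 45.0 ± 6.01 TPM in EpCAM+ cells, with a log2 difference of -0.81 ± 0.16 (SE, adjusted p = 3.5e-04). For each of the 3 genes no PDPN+ library reached the EpCAM+ range in TPM. Enah, with 10.7 ± 6.85 TPM in PDPN+ and 12.8 ± 3.00 TPM in EpCAM+ cells, did not pass (log2 difference 0.50 ± 0.29, SE, adjusted p = 0.16), and its sign was negative on log2(TPM + 1), at -0.54. Arhgef11, a RhoA exchange factor gene, was at 0.742 ± 0.634 TPM in PDPN+ and 0.757 ± 0.206 TPM in EpCAM+ cells (log2 difference 0.12 ± 0.77, SE, adjusted p = 0.91), and its sign turned with the mouse as a block, at -0.56. In order of mean TPM, Cd44 led in both populations. Fgfr1 and Rbfox2 came next in PDPN+ cells and did not differ beyond their spread, while Ctnnd1, Slk and Esrp1 followed in EpCAM+ cells with overlapping ranges.

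**Figure D2:**
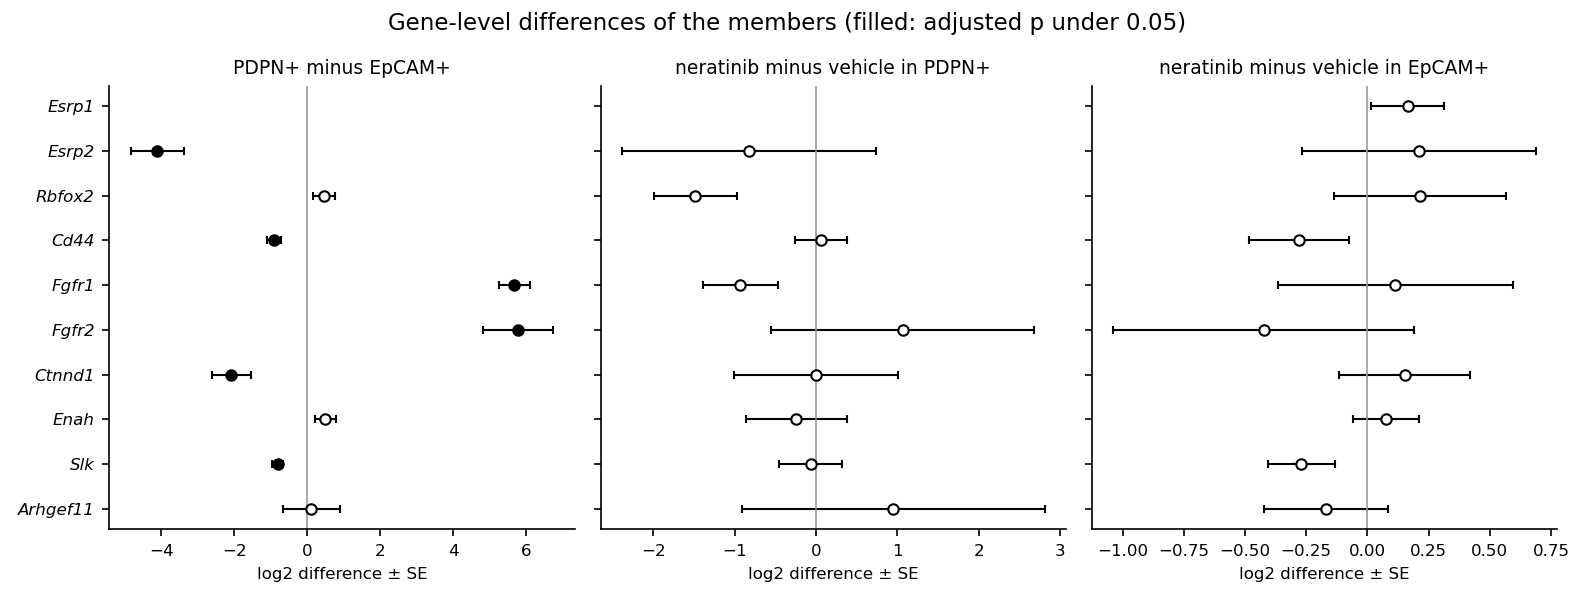
Log2 differences of scaled read counts with their SE for the members in the 3 comparisons, with separate axis ranges. Filled points passed the adjusted p threshold of 0.05, which 7 members did between the populations (Esrp1 is not drawn there, since its PDPN+ level is at the floor) and no member did for neratinib.

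Transcript forms were compared next, as the TPM of the transcripts with the epithelial form in percent of the TPM of those with either form. Enah exon 11a differed most clearly. In the 8 PDPN+ libraries Enah-202 had 0 reads, while the transcripts that skip the exon had 509 to 2741 reads. By counting error alone, a count of 0 is compatible with up to 3 reads, which would be a share of 0.205 to 1.86% in these libraries. This floor does not cover molecules lost before sequencing. In EpCAM+ cells the share was 20.8, 32.3, 33.0, 59.8 and 44.2% under neratinib, and 31.5, 37.3 and 63.5% (lowest, median and highest of 6) under vehicle. The share was therefore 0% in PDPN+ cells and 39.6 ± 12.5% in EpCAM+ cells (SD, n = 8 and 11). No libraries overlapped, and the two-sided exact permutation test over libraries gave p = 2.6e-05, the smallest possible with 8 against 11. Transcripts with neither form held 36.6 and 44.4% of Enah TPM on average in neratinib and vehicle EpCAM+ cells. They held 26.6 and 44.6% in neratinib and vehicle PDPN+ cells. Of all Enah TPM, the exon 11a form held 13.2 to 39.1% in EpCAM+ libraries. Of the epithelial markers, Epcam and Cdh1 were at 0 or under 2 TPM in the same PDPN+ libraries. The others reached higher levels there. Krt19 was at 118 to 564, Krt8 at 82.5 to 447 and Krt18 at 0.0918 to 317 TPM. Muc1 was at 2.84 to 13.2 and Cldn4 at 0 to 13.0 TPM.

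The usage test across all transcripts gave the same direction for Enah-202 (adjusted p = 2.9e-08), and this call held in all 24 alternatives. Within EpCAM+ cells the exon 11a form was the smaller of both forms in 9 of the 11 libraries, with Enah-202 at 1.34 to 5.75 TPM. Among the Enah transcripts that skip the exon, the 2 most abundant, Enah-203 and Enah-211, held 15.8 and 51.1% of Enah TPM in neratinib PDPN+ cells, 16.3 and 34.3% in vehicle PDPN+ cells, 12.2 and 22.8% in neratinib EpCAM+ cells and 8.9 and 22.9% in vehicle EpCAM+ cells. Enah-210, which also skips it, held 5.43 ± 8.59% in PDPN+ and 0.531 ± 0.667% in EpCAM+ cells (SD, n = 8 and 11), and its usage was higher in PDPN+ cells (adjusted p = 0.0084), a call lost in 3 of 24 alternatives. The annotated last exon has 9514 bases in Enah-211 and 1498 bases in Enah-202, so that the choice of exon 11a and of the 3′ end cannot be told apart for this pair. The last exon of Enah-203, with 1453 bases, is close in length to that of Enah-202.

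**Figure D3:**
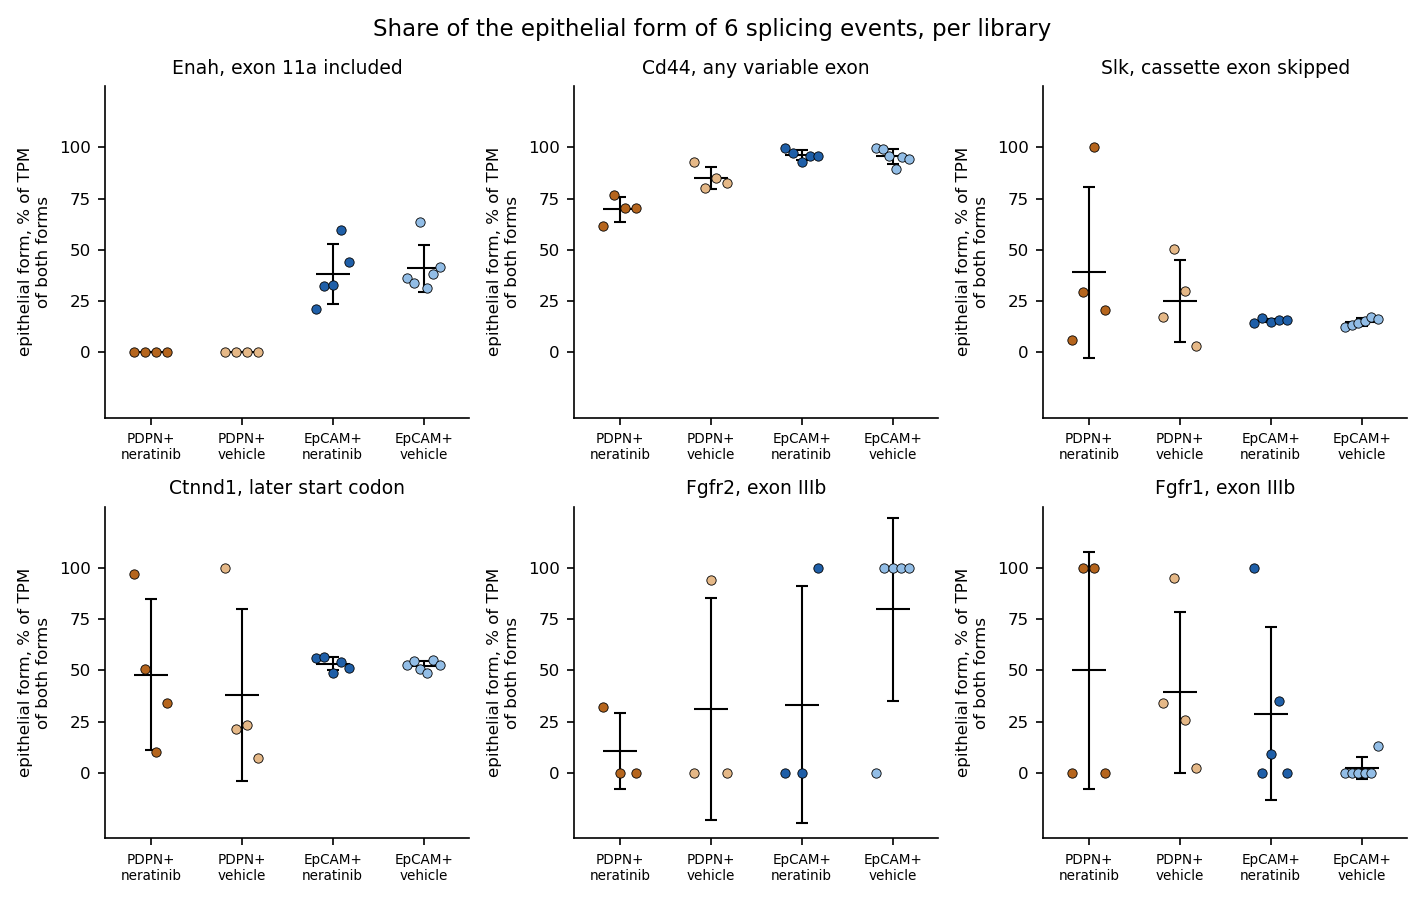
Share of the epithelial form, in percent of the TPM of both forms, for 6 splicing events, with 1 point a library and the mean ± SD of each group. Enah exon 11a is at 0% in all PDPN+ libraries and at 20.8 to 63.5% in EpCAM+ libraries, the Cd44 share is lowest in neratinib PDPN+ libraries, and Slk, Ctnnd1, Fgfr2 and Fgfr1 scatter widely in PDPN+ libraries.

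Cd44 carried fewer variable exons in PDPN+ than in EpCAM+ cells. Transcripts with any variable exon held 77.4 ± 9.85% of the TPM of both forms in PDPN+ and 95.9 ± 3.07% in EpCAM+ cells (SD, n = 8 and 11, two-sided exact permutation p = 5.3e-05). The ranges were 61.5 to 92.8% in PDPN+ libraries and 89.4 to 99.7% in EpCAM+ libraries, and thus overlapped through the vehicle PDPN+ library 1A. The transcripts behind these shares differed more than the shares did. Cd44-202, with v6 to v10, had 0 reads in all 8 PDPN+ libraries. Its share of Cd44 TPM was 6.07, 23.7, 16.1, 22.7 and 19.8% in neratinib EpCAM+ libraries and 6.04, 13.1 and 20.8% (lowest, median and highest) in vehicle EpCAM+ libraries. Its usage was lower in PDPN+ cells (adjusted p = 1.2e-24), a call that held in all 24 alternatives.

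The 3 smaller variable transcripts Cd44-204 (v9 and v10), Cd44-205 (v8 to v10) and Cd44-208 (v4 to v10) were also lower in PDPN+ cells in all 24 alternatives, and were singled out after their values were seen. Cd44-205 and Cd44-208 were at 0 in all PDPN+ libraries and held 4.23 ± 1.21 and 0.690 ± 0.246% of Cd44 TPM in EpCAM+ cells (SD, n = 11). The standard transcript Cd44-203 held 22.1 ± 9.73% in PDPN+ and 3.98 ± 2.98% in EpCAM+ cells, and its usage was higher in PDPN+ cells (log2 usage difference 1.59, adjusted p = 0.0064). That call was lost without the EpCAM+ libraries 1B, 2B and 7B, with a log2 usage difference of 1.35 (adjusted p = 0.054). Cd44-207, with v5, v6, v8, v9 and v10, was the main annotated transcript in both populations, at 72.6 ± 9.93% in PDPN+ and 64.0 ± 7.07% in EpCAM+ cells (log2 usage difference 0.13, adjusted p = 0.98).

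Cd44-207 and Cd44-201 are the transcripts annotated with a last exon of 3197 bases, against 1791 bases in Cd44-203 and 1808 bases in Cd44-202, so for these transcripts the variable exons and the 3′ end cannot be told apart. With both left out, a choice made after the data were seen, transcripts with a variable exon held 0 to 3.22% in neratinib PDPN+ libraries and 0 to 1.33% in vehicle PDPN+ libraries. The same share was 77.2 to 95.1% in neratinib EpCAM+ libraries and 65.2 to 98.0% in vehicle EpCAM+ libraries. The difference between the populations was then -85.1 percentage points, against -18.5 with all transcripts, and had the smallest possible two-sided exact permutation p of 2.6e-05.

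**Figure D4:**
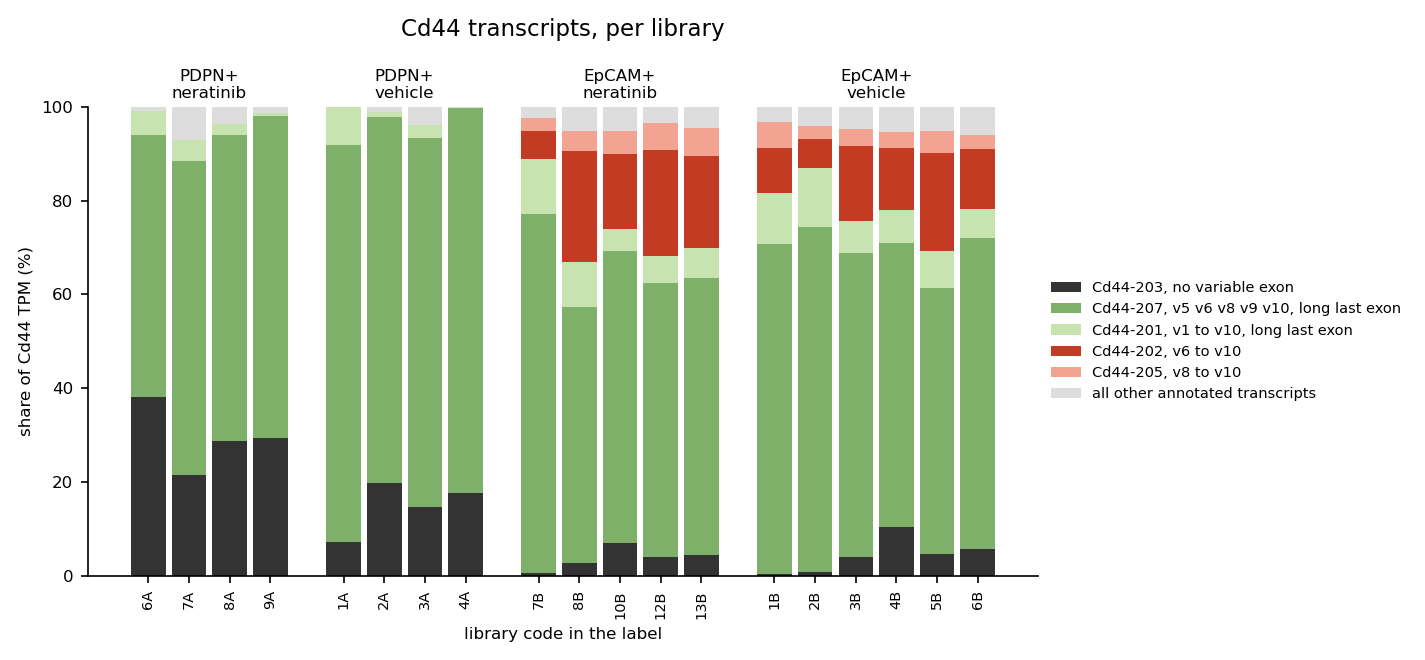
Share of Cd44 TPM in percent, with 1 stacked bar a library and the libraries named by their label's code. Segments show Cd44-203, Cd44-207, Cd44-201, Cd44-202 and Cd44-205, and all other annotated transcripts are pooled. Cd44-202 and Cd44-205 appear in the EpCAM+ bars and in none of the PDPN+ bars, and the segment of Cd44-203, without variable exons, is larger in the neratinib than in the vehicle PDPN+ bars.

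The other 4 events did not differ between the populations by this test. The share of Slk transcripts that skip the cassette exon was 5.98, 29.3, 100 and 20.4% in neratinib PDPN+ libraries and 17.2, 50.3, 29.9 and 2.82% in vehicle PDPN+ libraries. In EpCAM+ libraries it was 12.4 to 17.1%. The difference of 17 percentage points had a two-sided exact permutation p of 0.078, and was 24.3 points (p = 0.011) without the PDPN+ libraries 1A and 4A. The form that includes the exon, Slk-202, was therefore the main Slk transcript in EpCAM+ cells, at 60.8 to 68.9% of Slk TPM. Skipping, the form named epithelial, averaged 32.0% in PDPN+ and 15.0% in EpCAM+ cells, a direction opposite to its name. Slk-201, which skips the exon, has an annotated last exon of 3300 bases against 509 in Slk-202, so exon and 3′ end cannot be told apart here either.

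For Ctnnd1, transcripts that start at the later codon held 97.1, 50.8, 9.97 and 34% in neratinib PDPN+ libraries and 100, 21.3, 23.2 and 7.08% in vehicle PDPN+ libraries. They held 48.8 to 56.6% in EpCAM+ libraries, with the long form Ctnnd1-202 and the short form Ctnnd1-205 at 39.0 ± 2.26 and 41.7 ± 2.58% of the gene's TPM (SD, n = 11). The difference between the populations, -9.88 percentage points, did not pass (two-sided exact permutation p = 0.38). The spread was thus 37.0 percentage points (SD, n = 8) in PDPN+ and 2.68 points (SD, n = 11) in EpCAM+ cells. The highest PDPN+ values came from libraries 6A and 1A, in which Ctnnd1 was at 2.37 and 0.105 TPM. In those libraries Ctnnd1-206, a short form, held 97.1 and 100% of Ctnnd1 TPM. In the other PDPN+ libraries the share of the later start codon ran from 7.08 to 50.8%. The usage test called 2 of 8 tested Ctnnd1 transcripts higher and 3 lower in PDPN+ cells. Of these calls, those of Ctnnd1-207 and Ctnnd1-228, both lower, held in all 24 alternatives.

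For Fgfr2, reads were too few in EpCAM+ cells to give the choice of exon: the IIIb and IIIc transcripts had at most 18 estimated reads in any EpCAM+ library. In PDPN+ cells the IIIc transcripts had 0, 360, 400.0 and 375 reads under neratinib and 0, 36.7, 11.0 and 217 reads under vehicle. The IIIb transcripts had 113 reads in the neratinib library 7A, 148 in the vehicle library 3A, and 0 in the other 6 PDPN+ libraries. The IIIc form was therefore the one with more reads in 5 of the 6 PDPN+ libraries with either form. The IIIb share averaged 21 ± 38.0% in PDPN+ and 62.5 ± 51.8% in EpCAM+ cells (SD, n = 6 and 8, two-sided exact permutation p = 0.13). The main annotated Fgfr2 transcript of PDPN+ cells was Fgfr2-217, a 7-exon transcript with neither exon, at 43.1 to 100% of Fgfr2 TPM in the 7 PDPN+ libraries with any.

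Usage of the IIIb transcript Fgfr2-211 was lower in PDPN+ cells (adjusted p = 0.032), but this call was lost in 9 of 23 alternatives. For Fgfr1 the IIIb share was 0, 100, 100 and 0% in neratinib PDPN+ libraries and 34, 94.9, 25.6 and 2.59% in vehicle PDPN+ libraries. The shares thus covered the whole range within a group, and the 100% of library 7A rested on 50.6 reads. In EpCAM+ libraries, with at most 186 reads of either form, the median was 0% and the highest 100%. The difference was 30.4 percentage points (two-sided exact permutation p = 0.10). The IIIb share, named epithelial, thus averaged higher in PDPN+ cells, opposite to its name. Transcripts with neither exon held 54.2 and 59.5% of Fgfr1 TPM on average in neratinib and vehicle PDPN+ cells, mostly Fgfr1-204 and Fgfr1-206, both annotated as retaining an intron.

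Arhgef11 has no annotated cassette exon near the 3′ end, where its ESRP-dependent exon is known to lie, so no form share was formed. Its 40-exon transcript Arhgef11-201 was at 0 TPM in all 8 PDPN+ libraries and at 0 to 0.382 TPM in EpCAM+ libraries, and its usage was lower in PDPN+ cells (adjusted p = 0.0013), a call lost in 1 of 24 alternatives. At levels under 2 TPM the share of this transcript ranged from 0 to 53.7% of Arhgef11 TPM among EpCAM+ libraries. Over all members 19 of 63 tested transcripts, 30.2%, changed in usage, 5 higher and 14 lower in PDPN+ cells. Of the 46531 transcripts tested in all genes 17.8% changed, 4.14% as higher and 13.7% as lower (1928 and 6364 transcripts, against 5712 and 6545 with limma voom). Of these 19 calls, 8 held in every alternative that tested them: Enah-202, Cd44-202, Cd44-204, Cd44-205 and Cd44-208, Ctnnd1-207 and Ctnnd1-228, and Slk-204, all of them lower, and several of them small and named for this reason after their values were seen. Esrp1 and Fgfr1 had no call.

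The comparison of neratinib with vehicle asks whether ERBB inhibition moved these forms. At gene level no member passed in either population: 0 of 9 tested members in PDPN+ cells and 0 of 10 in EpCAM+ cells. The background was 0% of 14437 and 0% of 17200 genes called by edgeR, with 331 and 524 genes, 2.29% and 3.05%, at an unadjusted p under 0.05. DESeq2 called 73 and 15 genes in these comparisons, none of them a member. Log2 differences in EpCAM+ cells lay between -0.42 for Fgfr2 and 0.21 for Rbfox2 and Esrp2, and Esrp1 differed by 0.16 ± 0.15 (SE).

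Rbfox2 had the smallest unadjusted p among the members. It was at 16.4, 19.4, 11.3 and 17.7 TPM in neratinib PDPN+ libraries, against 27.3, 24.2, 26.5 and 33.6 TPM in vehicle PDPN+ libraries. These ranges did not overlap. The log2 difference of -1.48 ± 0.51 (SE) had an unadjusted p of 0.0149 and an adjusted p of 0.9998 in edgeR's test, where 2.29% of all genes had an unadjusted p under 0.05. Fgfr1, with a log2 difference of -0.93 ± 0.46 (SE, adjusted p = 0.9998), had 14.5 to 26.1 TPM under neratinib and 18.3 to 47.5 TPM under vehicle. In EpCAM+ cells Rbfox2 differed by 0.21 ± 0.35 (SE), and the difference between the populations' neratinib effects, -1.69 ± 0.62 (SE), did not pass (adjusted p = 0.25).

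Of the 6 events, the Cd44 share was the one in which neratinib and vehicle PDPN+ libraries did not overlap. Transcripts with a variable exon held 61.5, 76.8, 70.2 and 70.5% under neratinib, against 92.8, 80.2, 84.9 and 82.4% under vehicle. All 4 neratinib libraries lay below all 4 vehicle libraries, by 15.3 percentage points on average (69.7 ± 6.27 against 85.1 ± 5.52%, SD). The two-sided exact permutation p was 0.029, the smallest that 4 against 4 allows, and this was 1 of 18 such comparisons, with no adjustment made. Over 6 events, the neratinib effect on Cd44 was also the 1 that differed between populations (-15.3 points in PDPN+ against 0.64 in EpCAM+ cells, two-sided exact permutation p = 0.015).

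The shift lay between Cd44-203 and Cd44-207. Cd44-203 held 38.2, 21.6, 28.7 and 29.4% of Cd44 TPM in neratinib PDPN+ libraries, against 7.16, 19.7, 14.6 and 17.5% in vehicle PDPN+ libraries. Cd44-207 held 55.9, 66.9, 65.2 and 68.7% under neratinib, against 84.7, 78.2, 78.8 and 82.2% under vehicle. Neither transcript passed the usage test across all transcripts (adjusted p above 0.999 for both), in which 0% of 20987 transcripts were called in PDPN+ cells and 125 had an unadjusted p under 0.05. Because the transcripts also differ in their last exon, the share without Cd44-207 and Cd44-201 was computed. It was 0.806 ± 1.61% under neratinib and 0.509 ± 0.641% under vehicle (SD, n = 4 each). With the share close to 0 in both groups, a fall under neratinib was not detectable in these transcripts. Without the vehicle libraries 1A and 4A the difference was -12.8 points and the groups still did not overlap (two-sided exact permutation p = 0.13, the smallest that 4 against 2 allows). The summed TPM of the epithelial markers was 286 to 1159 in neratinib and 309 to 1202.5 in vehicle PDPN+ libraries, and that of the 5 macrophage markers 16.4 to 33.8 in neratinib and 12.7 to 68.3 in vehicle PDPN+ libraries. Their part in the result was not tested.

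No other event passed the test for neratinib in either population. In EpCAM+ cells Enah exon 11a was included at 38.0 ± 14.7% under neratinib and 40.9 ± 11.6% under vehicle (SD, n = 5 and 6, two-sided exact permutation p = 0.72). The Ctnnd1 share was 53.4 ± 3.27% under neratinib and 52.3 ± 2.29% under vehicle (p = 0.54, same exact test). The Slk share was 15.3 ± 0.894% under neratinib and 14.7 ± 1.78% under vehicle (p = 0.45, same exact test). The Cd44 share was 96.3 ± 2.41% under neratinib and 95.6 ± 3.74% under vehicle (p = 0.76, same exact test). On few reads, the Fgfr2 IIIb share was 33.3 ± 57.7% under neratinib and 80.0 ± 44.7% under vehicle (SD, n = 3 and 5, exact permutation p = 0.57). The Fgfr1 IIIb share was 28.8 ± 42.3% under neratinib and 2.18 ± 5.33% under vehicle (SD, n = 5 and 6, exact permutation p = 0.21). In PDPN+ cells the exact p for Slk, Ctnnd1, Fgfr1 and Fgfr2 was 0.66, 0.69, 0.83 and 1 (for Fgfr2, with 3 against 3 libraries, it could not go below 0.1), with group SDs of 18.6 to 57.7 percentage points, and Enah exon 11a was at 0% in both groups. Rbfox2-211, whose shares are given above, was higher in all 4 neratinib than in all 4 vehicle PDPN+ libraries (log2 usage difference 3.03, adjusted p above 0.999). No member transcript passed the usage test, with 30 tested in PDPN+ and 47 in EpCAM+ cells, and 0% and 0.00769% of all transcripts were called. The neratinib effect differed between the populations for none of the 10 genes and none of 63 member transcripts, where 0.0662% of all genes and 1.69% of all transcripts were called.

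Related genes were counted for the comparison of the populations. These lists were drawn up with earlier results of these data known. Of 20 other splicing regulators tested, 6 were higher, 7 lower and 7 not past the threshold in PDPN+ cells, beside the 24.3% higher and 25% lower of all genes. Celf2 and Qk, RNA-binding proteins that regulate splicing, were at 50.9 ± 24.8 and 26.5 ± 11.8 TPM in PDPN+ and at 3.63 ± 1.18 and 9.99 ± 2.56 TPM in EpCAM+ cells (SD, n = 8 and 11, edgeR adjusted p = 2.7e-09 and 4.5e-06). Nova1 was also higher (log2 difference 7.78, adjusted p = 4.5e-08). Rbm47, an RNA-binding protein of epithelia, was at 7.87 ± 11.1 TPM in PDPN+ and 127 ± 22.4 TPM in EpCAM+ cells (adjusted p = 1.4e-05).

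Of 7 mesenchymal transcription factor genes 6 were higher and none lower, and of 6 epithelial ones 5 were lower and none higher, beside the same 24.3% and 25% of all genes. Twist1, Prrx1, Zeb2 and Zeb1 averaged 14.9, 33.0, 40.0 and 27.1 TPM in PDPN+ and 0.00740, 0.0267, 0.827 and 1.40 TPM in EpCAM+ cells (edgeR adjusted p = 2.2e-09 to 6.6e-07). Zeb1 and Zeb2 encode repressors of epithelial genes. Ovol1 and Grhl2, activators of the epithelial programme, averaged 0.00186 and 0.0336 TPM in PDPN+ and 56.6 and 16.9 TPM in EpCAM+ cells, and Grhl3 and Ovol2 were at 0 in all PDPN+ libraries.

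Of 8 other FGF receptor and ligand genes tested 6 were higher and 1 lower in PDPN+ cells, where 49.3% of all genes passed. Fgf7, the ligand of the FGFR2 IIIb form, averaged 9.56 ± 8.51 TPM in PDPN+ and 0.136 ± 0.0845 TPM in EpCAM+ cells (adjusted p = 4.7e-06). Fgf1, Fgf2 and Fgf18 were higher too, with Fgf1 at 83.1 ± 29.6 TPM in PDPN+ and 8.36 ± 6.59 TPM in EpCAM+ cells. Among 5 cadherin genes, whose proteins bind p120 catenin, 3 were higher and 1 lower, beside 24.3% and 25% of all genes. Cdh11 and Cdh2 averaged 35.1 and 7.74 TPM in PDPN+ and 0.155 and 0.141 TPM in EpCAM+ cells, while E-cadherin (Cdh1) averaged 0.520 TPM in PDPN+ and 588 TPM in EpCAM+ cells.

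Of 8 other genes known for ESRP-dependent isoforms, 5 were lower and none higher at gene level in PDPN+ cells, beside 25% lower and 24.3% higher of all genes. Epb41l5 averaged 2.77 ± 3.46 TPM in PDPN+ and 32.7 ± 4.32 TPM in EpCAM+ cells. In usage 15 of 54 tested transcripts in 7 of these genes, 27.8%, changed, 3 higher and 12 lower, against the 17.8% of all transcripts. In Epb41l5 ENSMUST00000027632 was lower (log2 usage difference -5.21, adjusted p = 3.5e-08) and ENSMUST00000052404 higher (2.53, adjusted p = 0.0027), both singled out after their values were seen. Across all these lists and the cell type markers, no gene passed in either neratinib comparison, with 69 list entries tested in PDPN+ and 79 in EpCAM+ cells.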

How the data were processed

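RNA-seq of 19 libraries was used, each with a table of transcripts. Per the submitters' processing notes, the authors used Salmon 1.9.0 and the GRCm39/mm39 build; the sources used here name no transcript release, option or strand setting. Per the file headers, the deposited tables hold estimated counts (reads per transcript, not normalised), TPM, and the transcript's length and effective length. Salmon's own assignment error is not in the tables, so it is not in any p-value here. Per the labels' protocols, a low-input kit was used, with more PCR cycles for less RNA.

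Of 147828 transcripts, 137063 were found in GENCODE M21 by their identifiers, and their values were added up over 51707 genes; the 10765 others held 1.77 to 8.96% of the reads. All 143 member transcripts matched. M21 belongs to another build, GRCm38, so it gave names, exons and sequences but no coordinates.

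Gene sums were rounded and tested with edgeR 4.0.16 in R 4.3.3 (TMM, filterByExpr, robust quasi-likelihood F-test). Transcript usage, each transcript against its gene's others, was tested with diffSpliceDGE. The p-values of the gene and usage tests were adjusted over the whole table by Benjamini-Hochberg at 0.05. The populations were compared in a fit of all 19 libraries with 4 group means, and neratinib with vehicle in fits of each population alone. On simulated data with known changes the gene test found nearly all changed genes. The usage test found the changed transcripts but also called more unchanged ones than its threshold states. The text therefore gives how each usage call fared under alternatives, limma 3.58.1 voom among them. The simulation gave every gene the same set spread, and large changes were placed in well-read genes and transcripts. It therefore cannot show how often smaller changes, or changes at the spread of the PDPN+ libraries, would be found. Other alternatives were DESeq2 1.42.0, other filters and scalings, and left-out libraries. Form shares were compared by exact permutation over libraries (scipy 1.17.1), with no adjustment of these p-values.

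The members and gene lists were chosen with earlier results of these data known. The rule for named transcripts was at least 10% of their gene's TPM in a group, or 5% if they carry a form, and smaller ones were named after their values were seen; other genes are up to 4 per list by smallest p between the populations. Ctnnd1-224, the transcript that starts upstream of the codon of the longest coding sequence, counted for neither form, a reading chosen after a literal one gave the same value in every library. Floors of 3 reads and intervals cover counting error only, since PCR copies are not independent molecules. Some sequences and a listed gene are not reported here.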

Additional observations from a re-analysis of the deposited data

Results flagged for a closer look

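Outliers were sought in 58 groups of values, and chance flags about 1 in 20 such groups; 7 values stood far from the rest of their group. In neratinib EpCAM+ cells these were Cd44 at 274 TPM in library 13B and Rbfox2 at 9.71 TPM in library 7B. In neratinib PDPN+ cells they were Esrp1 at 0.0256 TPM, on 2 reads, in library 9A, where the other 3 libraries had 0, and Esrp2 at 2.42 TPM in library 8A. In vehicle EpCAM+ cells they were form shares: Enah exon 11a at 63.5% in library 3B, Fgfr2 exon IIIb at 0% in library 1B, and Fgfr1 exon IIIb at 13.1% in library 6B, the last 2 on few reads. The neratinib effect on the Cd44 variable-exon share was further apart between PDPN+ and EpCAM+ cells than permuted treatment labels usually gave, by -16.0 percentage points (two-sided exact permutation p = 0.015).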

How the results depend on the processing

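Leaving out the PDPN+ libraries 1A and 4A (A) or the EpCAM+ libraries 1B, 2B and 7B (B) was chosen after seeing the data. Between the populations the counts of called genes and transcripts stayed within 1.5 times in all alternatives tried. Genes called for neratinib were 111 with all 19 libraries in 1 fit and 73 with DESeq2 in PDPN+ cells, and 15 with DESeq2 in EpCAM+ cells, against 0 each. For the difference of the neratinib effects they were 572 (A), 1 (B), 680 (DESeq2) and 1 (limma on log2(TPM + 1)), against 13, and 9 to 131 with 1 library left out. Transcripts with changed usage under neratinib were 2427 in PDPN+ cells with all libraries in 1 fit and 2 with voom, against 0, and 0 to 2 with 1 library left out. In EpCAM+ cells they were 12 (B), 9 (1 fit), 5 (the digit in the file code as covariate), 7 (voom) and 218 (a filter of 10 reads in all), against 3, and 1 to 42 with 1 library left out. For the difference of effects they were 102 (B) and 62 (voom), against 786, and 306 to 1466 with 1 library left out.

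Of the form shares, differences in percentage points, Slk between the populations was 24.3 (A) and Fgfr2 -59.0 (B), both then past 0.05. Cd44 for neratinib in PDPN+ cells was -12.8 (A, with the smallest p that 4 against 2 libraries allow). Within file-code digits it was -15.3 (p = 0.05, exact permutation, the smallest p possible there). Without the longest last exon it was 0.30, where the share is near 0 in both groups. With 1 library left out it was -17.7 to -12.6. Signs turned for neratinib in PDPN+ cells for Slk at -1.18 (A) and for Fgfr1 at -1.83 (all transcripts as denominator), -5.95 (1 TPM of either form) and -10.3 (A), and in EpCAM+ cells for Enah at 0.30 (estimated counts) and 1.73 (all transcripts). With 1 library left out the ranges were -6.49 to 24.8 for Slk, -5.95 to 29.3 for Fgfr1, -6.31 to 30.8 for Ctnnd1 and -36.3 to 10.7 for Fgfr2 in PDPN+ cells, -8.27 to 1.70 for Enah and -0.59 to 1.48 for Cd44 in EpCAM+ cells, and 7.31 to 21.2 for Slk and 22.5 to 38.9 for Fgfr1 between the populations.

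Among gene levels, log2 differences that were not called turned sign. Between the populations these were Enah at -0.54 (limma) and Arhgef11 at -0.56 (mouse block) and -0.24 to 0.27 with 1 library left out. For neratinib in PDPN+ cells they were Ctnnd1 at -0.20 (A) and -0.0106 (no filter), Arhgef11 at -0.11 (A) and Esrp2 at 0.13 (A), and for the difference of effects Slk at -0.24, Ctnnd1 at 0.13 and Esrp1 at -0.20 (limma). With 1 library left out the PDPN+ ranges were -0.22 to 0.24 for Cd44, -0.42 to 0.38 for Ctnnd1, -0.96 to 0.0333 for Enah, -2.84 to 0.55 for Esrp2 and -0.25 to 0.0623 for Slk. The EpCAM+ ranges were -0.0394 to 0.15 for Enah, -0.0134 to 0.45 for Esrp2 and -0.38 to 0.41 for Fgfr1, and those of the difference -0.56 to 0.23 for Ctnnd1, -0.18 to 2.94 for Esrp1 and -3.03 to 0.25 for Esrp2. The cause of these changes was not tested.

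Libraries with the same mouse number did not deviate together: none of 8 pairs had a correlation over 0.1 (-0.210 to 0.0593). With the mouse as a block 7251 genes and 6330 transcripts were called between the populations. The paired Enah share differed by -37.5 and the Cd44 share by -18.3 percentage points (exact permutation p = 0.0078 each, the smallest possible), and the Slk, Ctnnd1, Fgfr2 and Fgfr1 shares by 17, -9.54, -67.0 and 31.0, none past 0.05. Fgfr1, Fgfr2 and Arhgef11 forms rest on few reads in EpCAM+ cells, which limits their shares there.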
